A study of Mus musculus with 31 samples.

Results

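Double negative (DN) thymocytes are the earliest T cell precursors of the thymus, which carry neither CD4 nor CD8, and they were compared here between neonatal and adult mice. The comparison used 7 of the 31 libraries in the series, 4 from neonatal and 3 from adult DN cells, chosen by the labels alone. All mice were C57BL/6, an inbred laboratory strain, with no transgene or treatment named. Adults were 12 weeks old and neonates 5 to 7 days old. The DN cells came from the fraction that passed beads against CD4 and then CD8a. They were sorted with antibodies of which the series text names CD4, CD8, CD44 and CD25. The series text gives DN cells as a pool of the steps DN1 to DN3. The labels of the adult DN samples repeat this and those of the neonatal ones do not, and whether the gates were the same at both ages is not given in the sources used here. An antibody against B, myeloid, NK or gamma-delta T cells is not given in the sources used here. Adult DN replicate 1 was not analysed here, and adult replicates keep their numbers 2, 3 and 4. The other 24 libraries, from double positive (DP) and CD8 single positive (SP8) thymocytes and splenic CD8 T cells of the same ages, were used to estimate spread and to set the DN difference beside that of later stages.

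DN thymocytes pass through steps that are read from surface CD44, KIT and CD25 (the IL-2 receptor alpha chain, Il2ra). Progenitors enter as DN1, commit to the T lineage under Notch signals during DN2, and rearrange the T cell receptor beta locus in DN3. There the beta chain pairs with the pre-TCR alpha chain (Ptcra), and signals from this pre-TCR drive a burst of division toward the DP stage. Gamma-delta T cells branch off during the same steps. Fetal and perinatal progenitors are known to run a programme set by the RNA-binding protein LIN28B, which blocks let-7 microRNAs and raises their targets.

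The table of raw counts held 14986973 to 25161889 counts per adult DN library and 17071979 to 21237801 per neonatal one. Log expression correlated more closely within an age (lowest Pearson r 0.979 in adults and 0.988 in neonates, across genes) than between ages (0.956 to 0.971). Mitochondrial transcripts took 1.10% to 1.55% of counts in the 7 libraries, with overlap between ages. One library stood apart: immunoglobulin segments summed to 7266 CPM (counts scaled to the size of each library) in adult replicate 4, against 549 and 752 CPM in the other adults and 322 to 403 CPM in the neonates. Results that rest on adult replicate 4 are therefore also given without it. These sums and all levels below are CPM after scaling by the trimmed mean of M values (TMM). Levels of genes are listed for adult replicates 2, 3 and 4 and then for neonatal replicates 1 to 4. A fold change is log2 of neonate over adult with its standard error (SE) from edgeR's quasi-likelihood test, and a gene "rose" or "fell" in neonates where the Benjamini-Hochberg adjusted p was under 0.05. The replicates are called biological in the series text, which does not say which animals each came from. The p-values measure the spread between replicates as estimated over all 31 libraries, not over the 7 DN libraries alone.

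Of 16461 genes tested, 5915 (35.9%) differed between neonatal and adult DN cells, 2159 higher (13.1%) and 3756 lower (22.8%) in neonates. Higher genes made up 36.5% of those called. That share was 48.0% with DESeq2 size factors and 47.1% in a fit of the 7 DN libraries alone. It was 28.6% with total counts and 39.3% in limma-voom. The balance of rises and falls thus depends on the scaling and on the libraries fitted. The 7 libraries of a gene did not overlap between the ages for 40.6% of genes. Large differences were mostly falls: 300 genes (1.82%) rose and 1701 (10.3%) fell at least 2-fold. Without adult replicate 4, 4255 genes were called, 1470 higher and 2785 lower.

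Falls were most frequent among genes near 0 in DP thymocytes, the direct successors of DN cells. Of 184 genes that averaged at least 10 CPM over both DN ages and under 1 CPM in DP, 12 rose and 132 (71.7%) fell in neonates, with a median log2 fold change of -1.57. A mean over both ages also admits genes through 1 age alone. Of 62 such genes with at least 10 CPM at each DN age, 5 rose and 31 fell, with a median of -0.62. Among 5529 genes at 10 to 100 CPM in DP, 1116 rose and 1200 (21.7%) fell, with a median of 0.02. Over the 7605 genes with at least 10 CPM in each DN and DP group, 1543 rose and 1647 fell, and at least 2-fold differences numbered 22 rises and 169 falls. In bulk RNA, fewer cells of a type and less RNA per cell cannot be told apart.

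**Figure D1:**
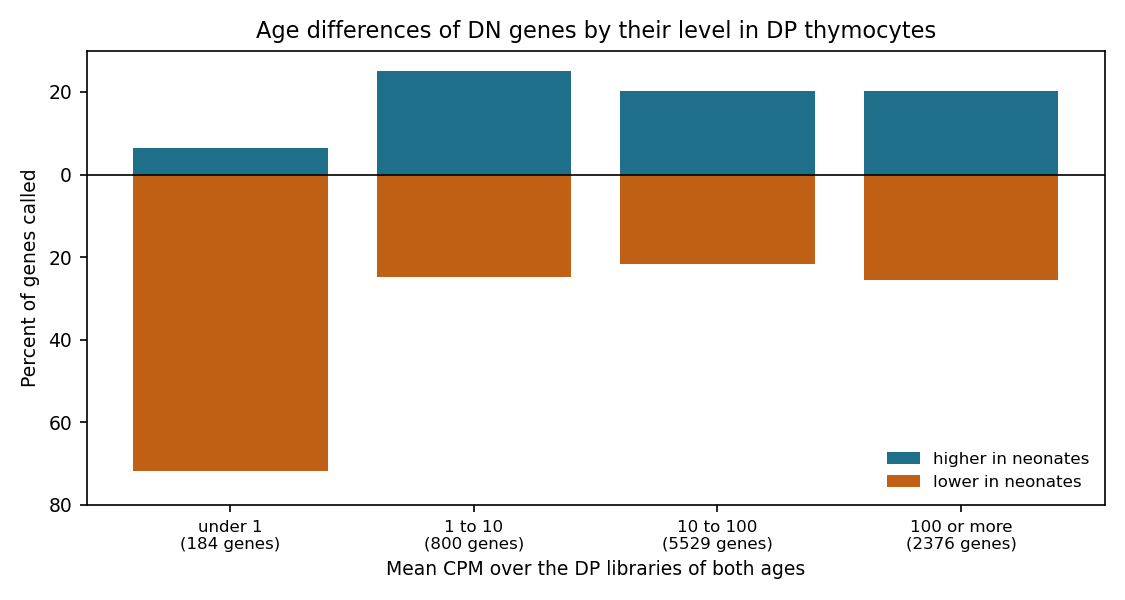
Percent of DN genes called higher (up) or lower (down) in neonates, grouped by mean level in DP thymocytes, for genes averaging at least 10 CPM over both DN ages. Falls reached 71.7% among the 184 genes under 1 CPM in DP and lay between 21.7% and 25.5% in the other groups.

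Genes were then grouped by lists of DN steps, pathways and cell types, with the shares above as the background. The lists were chosen with earlier results of these data known, so their shares describe the lists and do not test them. Most genes of DNA replication, ribosome biogenesis, glycolysis and cholesterol synthesis rose, while most of interferon response, MHC class I and the B, macrophage and NK lists fell.

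**Figure D2:**
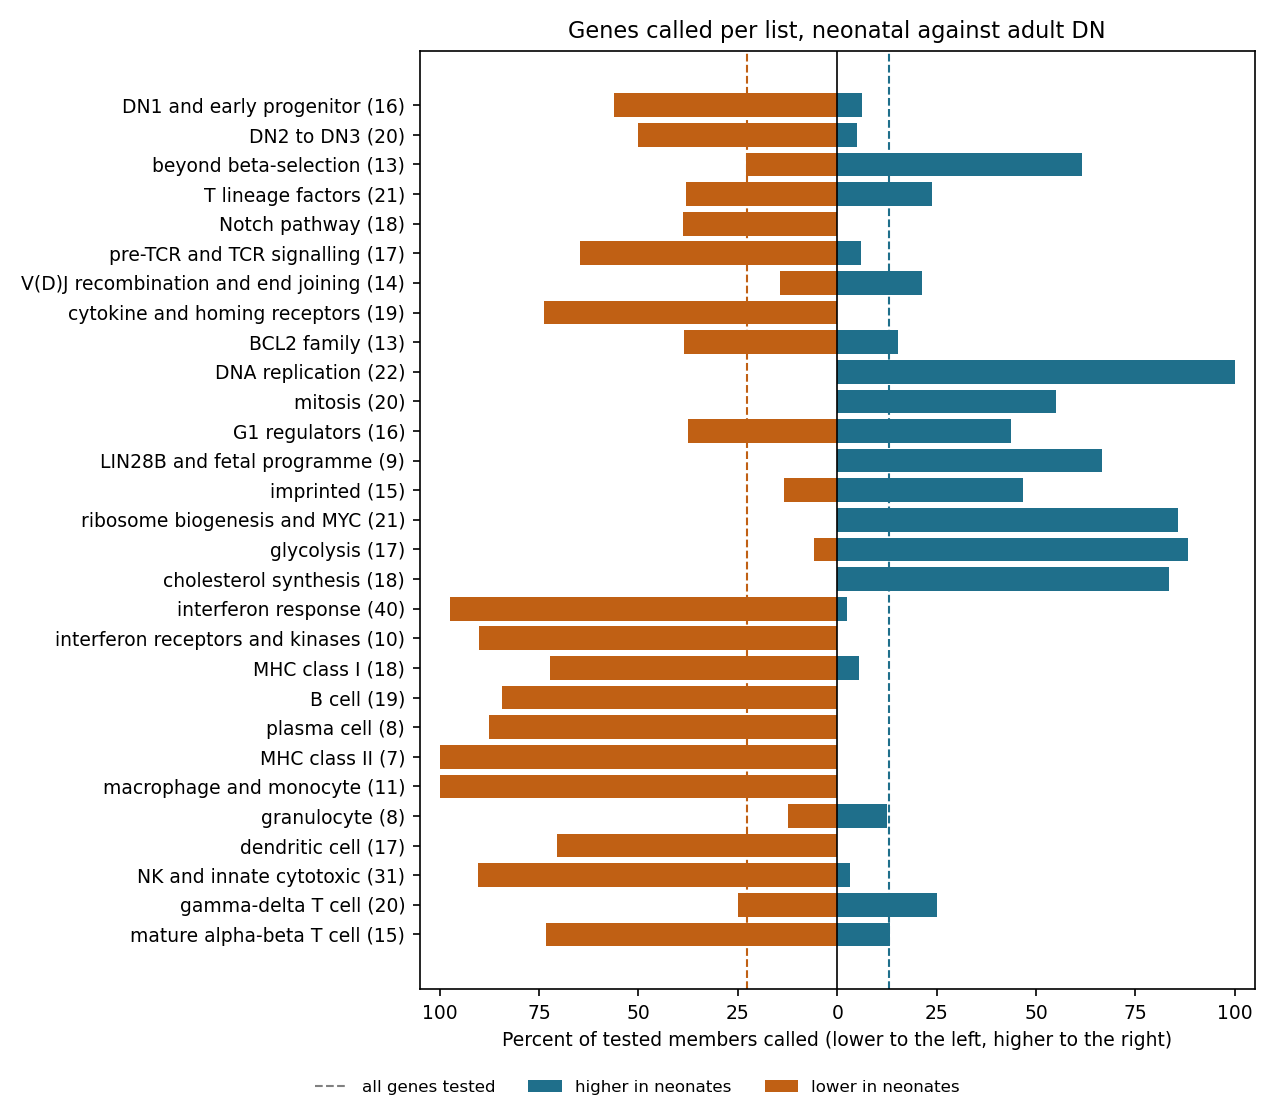
Percent of tested members of each gene list called higher (right) or lower (left) in neonatal DN cells, with the number of members tested in brackets and dashed lines at 13.1% and 22.8% for all genes tested. All 22 DNA replication genes were higher and 39 of 40 interferon response genes were lower. The lists were chosen with earlier results of these data known.

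Markers of the earliest DN step were mostly lower in neonates. Of 16 tested genes of DN1 and early progenitors, 9 fell and 1 rose, with a median log2 fold change of -1.13, against -0.08 over all genes tested. Lmo2, a progenitor transcription factor, stood at 10.9, 10.5 and 15.7 CPM in adults and 2.84, 1.52, 2.36 and 2.34 CPM in neonates (log2 fold change -2.45 ± 0.50, adjusted p = 2.04e-04). Cd44, the adhesion receptor that marks DN1 and DN2, was at 33.1, 34.4 and 40.3 CPM in adults and 17.3, 17.4, 10.5 and 12.1 CPM in neonates (log2 fold change -1.33 ± 0.16, adjusted p = 1.70e-08). Neither gene's adult and neonatal libraries overlapped. The progenitor genes Erg, Flt3, Spi1, Mef2c, Bcl11a and Hhex also fell, by between 1.01 and 1.88 on the log2 scale. Several of these, among them Spi1, Mef2c, Flt3 and Bcl11a, are also expressed by B or myeloid cells, whose own markers fell in the same libraries. The B cell list summed to 693 to 2856 CPM in adults and 475 to 558 CPM in neonates, and the macrophage list to 121 to 312 CPM and 27.0 to 62.0 CPM. The NK list summed to 717 to 834 CPM in adults and 383 to 487 CPM in neonates. The mature alpha-beta T cell list summed to 791 to 971 CPM and 408 to 477 CPM. The part of any of these cells in the progenitor result, Cd44 included, was not tested. Kit, the stem cell factor receptor of DN1 and DN2, showed 63.9, 54.8 and 57.5 CPM in adults and 46.2, 52.8, 40.5 and 43.0 CPM in neonates (log2 fold change -0.36 ± 0.12, adjusted p = 0.0133). Its libraries did not overlap, but the call was lost without adult replicate 2 (-0.30) or without neonatal replicate 3 (-0.31).

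Il2ra, which marks DN2 and DN3, gave the largest difference but one among 20 genes of those steps. Its level was 503, 324 and 397 CPM in adults and 158, 176, 124 and 92.4 CPM in neonates (log2 fold change -1.57 ± 0.20, adjusted p = 2.81e-07), with no overlap. Ptcra, the other defining gene of DN3, was at 81.9, 61.1 and 65.5 CPM in adults and 77.8, 78.3, 80.7 and 70.6 CPM in neonates. The ages overlapped, and the difference did not pass the test (log2 fold change 0.15 ± 0.12, adjusted p = 0.367). Of the 20 genes, 10 fell and 1 rose, with a median of -0.31. The members differed. Hes1, a Notch target, and Cd3g fell by 0.78 and 0.75, while Gata3 (0.15), Lck (-0.06) and Cd3d (-0.16) gave log2 differences that did not pass. Tcf7, which encodes the T lineage factor TCF1, was the 1 member that rose (log2 fold change 0.34 ± 0.09, adjusted p = 0.00384), a call lost without adult replicate 4 (0.25). Rag1, the recombinase, was at 512, 543 and 465 CPM in adults and 826, 860.2, 764 and 704 CPM in neonates. Every neonatal library lay above every adult one, yet the difference missed the threshold (log2 fold change 0.64 ± 0.26, adjusted p = 0.0584). It was called with DESeq2 size factors (0.71). Levels in DP were 6565 ± 1107 CPM (SD, n = 4) in adults and 7609 ± 591 CPM (SD, n = 4) in neonates.

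Genes of the steps beyond beta-selection went the other way, with 8 of 13 rising and 3 falling (median 0.48). Cd8a, a coreceptor chain that first appears between DN and DP, had 11.8, 16.7 and 14 CPM in adults and 69.0, 65.8, 67.5 and 63.9 CPM in neonates (log2 fold change 2.23 ± 0.10, adjusted p = 2.59e-19). Cd8b1, the second chain, had 15.6, 20.4 and 13.0 CPM in adults and 35.1, 34.4, 31.4 and 32.8 CPM in neonates (log2 fold change 1.04 ± 0.12, adjusted p = 1.72e-08). Neither gene overlapped between ages. Cd4 stayed low, at 1.66, 3.24 and 1.88 CPM in adults and 5.50, 4.23, 6.26 and 5.90 CPM in neonates (log2 fold change 1.28 ± 0.25, adjusted p = 1.05e-04). For scale, DP cells held 3239 ± 205 CPM (SD, n = 4) in adults and 2809 ± 159 CPM (SD, n = 4) in neonates for Cd8a and 1679 ± 27.1 CPM (SD, n = 4) in adults and 1623 ± 41.2 CPM (SD, n = 4) in neonates for Cd4. The part of carried-over DP cells in these rises was not tested. The transferrin receptor Tfrc (0.48), the amino acid transporter Slc7a5 (0.72) and Bcl2l1, which encodes the survival protein BCL-XL (0.67), rose as well. Trac, the constant region of the T cell receptor alpha chain, fell (log2 fold change -1.68 ± 0.12, adjusted p = 5.20e-14), as did Cd27 (-0.49).

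**Figure D3:**
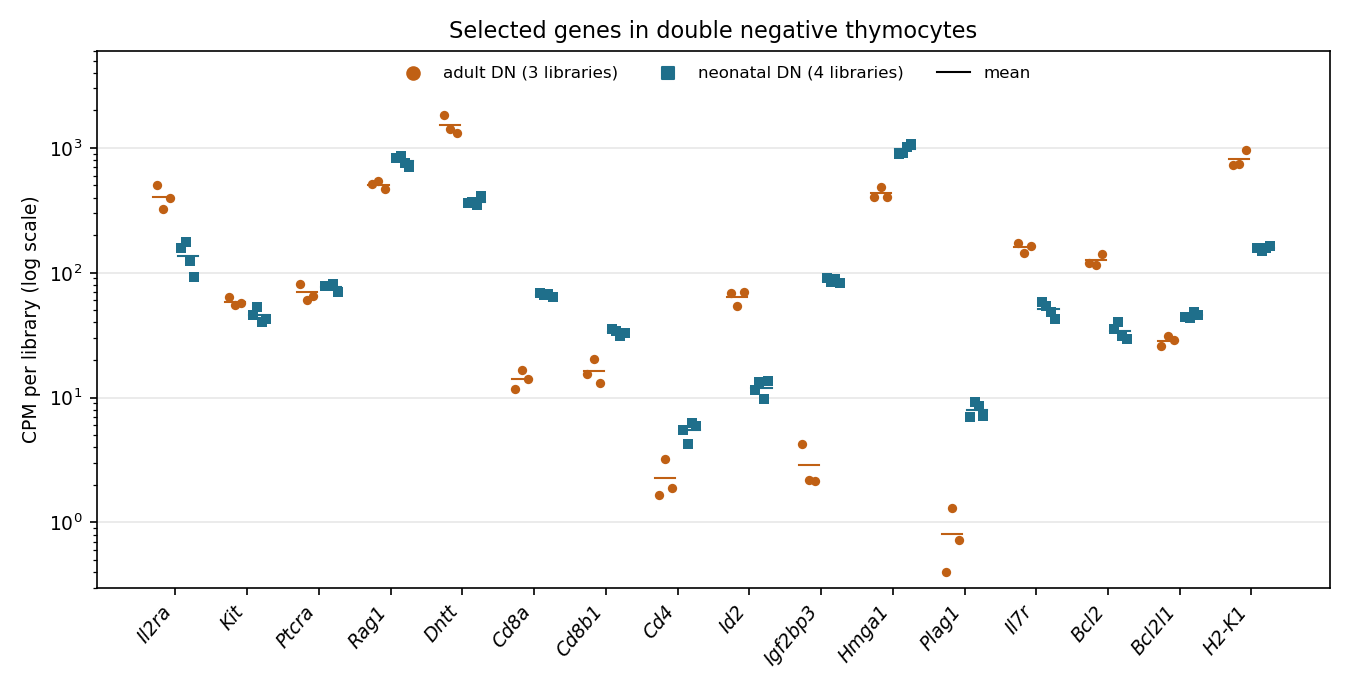
CPM on a log scale in each DN library for 16 genes, adult as circles and neonatal as squares, with lines at the means. Il2ra, Dntt, Id2, Il7r, Bcl2 and H2-K1 were higher in every adult library, while Cd8a, Cd8b1, Igf2bp3, Hmga1 and Bcl2l1 were higher in every neonatal one and Ptcra overlapped.

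Transcription factors of the T lineage divided, 5 of 21 rising and 8 falling with a median of 0.00. The largest falls were in Zbtb20, a zinc finger repressor, at 41.5, 38.6 and 33.4 CPM in adults and 4.92, 6.57, 6.56 and 4.94 CPM in neonates (log2 fold change -2.71 ± 0.26, adjusted p = 4.99e-09), and in Id2, an inhibitor of E proteins that innate lymphoid and NK cells need, at 68.6, 54.2 and 69.7 CPM in adults and 11.5, 13.2, 9.75 and 13.7 CPM in neonates (log2 fold change -2.41 ± 0.16, adjusted p = 5.70e-14). Bach2, a repressor that restrains effector genes, was at 21.2, 16.5 and 18.1 CPM in adults and 6.42, 7.37, 6.26 and 3.29 CPM in neonates (log2 fold change -1.67 ± 0.21, adjusted p = 2.58e-07). Adult and neonatal values were separate for all 3 genes. The NK and innate cytotoxic list summed to 717 to 834 CPM in adults and 383 to 487 CPM in neonates. Without Gzma, which rose, the sums were 483 to 615 CPM in adults and 76.8 to 102 CPM in neonates. The part of such cells in the fall of Id2 was not tested, nor was that of B or other cells in the falls of Zbtb20 and Bach2. Lef1, a partner of TCF1, rose, at 136, 147 and 78.5 CPM in adults and 237, 234, 240.5 and 157 CPM in neonates (log2 fold change 0.85 ± 0.22, adjusted p = 0.00306), as did the chromatin organiser Satb1 (0.40). Among factors at the core of T cell identity, log2 differences were 0.13 for Tcf12, 0.11 for Runx1 and 0.15 for Gata3, none past the test, and -0.36 for Bcl11b, whose fall lost its call with DESeq2 size factors (-0.28), in the DESeq2 test and without adult replicate 2 (-0.33), adult replicate 3 (-0.30) or neonatal replicate 4 (-0.29).

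No gene of the Notch pathway rose, and 7 of 18 fell (median -0.22). Lfng, a glycosyltransferase that tunes Notch for its Delta-like ligand, fell most, at 60.3, 65.7 and 67.5 CPM in adults and 18.7, 21.6, 16.7 and 18.7 CPM in neonates (log2 fold change -1.76 ± 0.14, adjusted p = 2.04e-12). Maml2, a coactivator, fell by 1.20. The receptor Notch1 was at 763, 951 and 972 CPM in adults and 859, 1031, 1100 and 955 CPM in neonates, overlapping between ages (log2 fold change 0.14 ± 0.12, adjusted p = 0.388). Of 17 genes of pre-TCR and TCR signalling, 11 fell and 1 rose (median -0.31). The phosphatase gene Ptpn22 fell most, by 1.19, and Themis fell by 0.57, Plcg1 by 0.47 and the adaptor Lcp2 by 0.31. The 1 rise, in the kinase gene Zap70 (0.23), lost its call on leaving out any 1 of the 7 libraries, when its log2 difference ran from 0.19 to 0.25.

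Dntt, which encodes terminal deoxynucleotidyl transferase and adds untemplated bases at V(D)J joints, showed the largest fall of the 14 genes of recombination and end joining, of which 3 rose and 2 fell (median -0.03). It lies on chromosome 19 from 41029275 to 41059525 (GRCm38, GENCODE M21). Its level was 1850, 1429 and 1328 CPM in adults and 359.6, 368, 348 and 412 CPM in neonates, a fall of 4.13-fold (log2 fold change -2.05 ± 0.15, adjusted p = 4.28e-13). The ages were far apart. Dntt was also lower in neonatal DP cells, 2370 ± 142 CPM (SD, n = 4) in adults and 1211 ± 128 CPM (SD, n = 4) in neonates. The repair genes Lig4 (0.03), Xrcc6 (0.10) and Prkdc (-0.06) gave log2 differences that did not pass, and Xrcc5 rose (log2 fold change 0.44 ± 0.11, adjusted p = 0.00138).

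Cytokine and homing receptors fell as a group, 14 of 19 with none rising (median -0.49). Il7r, the receptor on which DN survival depends, was at 174, 143 and 163 CPM in adults and 58.6, 54.0, 48.3 and 42.7 CPM in neonates (log2 fold change -1.65 ± 0.13, adjusted p = 1.57e-12). Il2rb, shared by the receptors for IL-2 and IL-15 and abundant in NK cells, was at 101, 119 and 140.0 CPM in adults and 28.1, 34.0, 28.4 and 27.1 CPM in neonates (log2 fold change -2.03 ± 0.13, adjusted p = 1.90e-14). The common gamma chain Il2rg fell by 0.58 and the kinase Jak1 by 0.71. In the BCL2 family 2 of 13 genes rose and 5 fell (median -0.26). Bcl2 itself fell, at 119.7, 116 and 141 CPM in adults and 35.4, 40.2, 31.3 and 29.3 CPM in neonates (log2 fold change -1.88 ± 0.10, adjusted p = 1.30e-16), and Mcl1 fell by 0.51, while Bcl2l1, at 25.7, 31.1 and 29.0 CPM in adults and 44.6, 43.8, 48.3 and 46.1 CPM in neonates, and the proapoptotic Bid (0.67) rose. None of Bcl2, Mcl1, Bcl2l1 and Bid overlapped between ages.

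Genes of the fetal programme rose in neonatal DN cells. Igf2bp3, an RNA-binding protein gene on chromosome 6 from 49085223 to 49214957, had 4.26, 2.18 and 2.14 CPM in adults and 90.7, 84.1, 88.9 and 82.4 CPM in neonates (log2 fold change 4.97 ± 0.18, adjusted p = 1.59e-21), the largest rise among genes that averaged at least 10 CPM in neonates and did not overlap between ages. Lin28b, on chromosome 10 from 45376620 to 45486395, gave at most 1 count in each adult library and 3.07, 2.09, 1.65 and 1.12 CPM in the neonatal ones, at least 12.1-fold higher in neonates against a floor of 3 counts per library. Plag1, a zinc finger factor of fetal growth, was at 0.399, 1.30 and 0.727 CPM in adults and 6.94, 9.23, 8.63 and 7.17 CPM in neonates (log2 fold change 3.29 ± 0.30, adjusted p = 5.53e-11). Hmga1, a chromatin architectural gene and let-7 target, was at 407, 488 and 402 CPM in adults and 894, 908, 1017 and 1078 CPM in neonates (log2 fold change 1.17 ± 0.12, adjusted p = 3.50e-10), and Arid3a rose by 0.71. None of these genes overlapped between the ages. Hmga2 (log2 fold change 1.24 ± 0.60, adjusted p = 0.118), Igf2bp2 (-0.37) and Mycn (-0.61) did not pass. Lin28a and Igf2bp1 stayed at or under 7 counts in any library, and Sox17 gave none. In all, 6 of 9 tested members rose and none fell (median 1.24). For Igf2bp3, DP levels were 3.43 ± 0.883 CPM (SD, n = 4) in adults and 58.3 ± 4.57 CPM (SD, n = 4) in neonates.

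Imprinted genes, which are expressed from 1 parental copy and often lowered after birth, rose in 7 of 15 tested and fell in 2 (median 0.24). H19, a long noncoding RNA, was at 27.2, 23.1 and 43.9 CPM in adults and 150.2, 159, 99.2 and 106 CPM in neonates (log2 fold change 2.03 ± 0.38, adjusted p = 1.86e-04). Cdkn1c, an inhibitor of cyclin-dependent kinases, was at 0.666, 0.589 and 1.53 CPM in adults and 4.40, 5.76, 3.96 and 5.26 CPM in neonates (log2 fold change 2.27 ± 0.25, adjusted p = 2.60e-09), and 2.95 without adult replicate 4. Snrpn gave 3 counts or fewer in each adult library and 3.82, 3.28, 2.66 and 2.92 CPM in the neonates, at least 19.4-fold higher. Every neonatal library exceeded every adult one in these 3 genes. Zrsr1 (-0.76) and Impact (-0.46) fell, and Igf2 was at or near 0 in all 7 libraries.

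All 22 tested genes of DNA replication rose in neonatal DN cells, against 13.1% of all genes, with a median of 0.61. The rises were of similar size, from 0.40 in Gins1, a call lost without adult replicate 3 or 4 or neonatal replicate 1 or 3 (lowest 0.31), to 0.86 in Mcm10. Mcm5, a subunit of the replicative helicase, was at 548, 554 and 509 CPM in adults and 843, 835, 810.0 and 867 CPM in neonates (log2 fold change 0.64 ± 0.13, adjusted p = 1.38e-04). Rrm2, the ribonucleotide reductase subunit that peaks in S phase, was at 329.6, 359 and 269 CPM in adults and 585, 555, 590.2 and 556 CPM in neonates (log2 fold change 0.84 ± 0.21, adjusted p = 0.00278). Cdc6, which loads the helicase at origins, was at 127, 150.0 and 121 CPM in adults and 221, 224, 209 and 227 CPM in neonates (log2 fold change 0.73 ± 0.19, adjusted p = 0.00292). Neonatal libraries were above adult ones throughout for these 3 genes. With total counts 21 of the 22 were called, and without adult replicate 4 the number was 18.

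Replication genes are classic targets of E2F factors. The motif was searched as TTTCCCGC or TTTGGCGC on both strands, from 250 bases before to 50 after each start site in RefSeq (GRCm38.p6). It occurred in 7 of 17 replication genes with a window (41.2%), in 3 of 14 ribosome biogenesis genes (21.4%), 2 of 16 MHC class I genes (12.5%), 1 of 29 interferon response genes (3.45%), none of 16 mitosis and none of 12 cholesterol synthesis genes, and in 364 of 10812 tested genes (3.37%). Shown, as examples among the replication genes that rose, are the 250 bases before the start sites of Cdc6 (chr11:98907901-98908150, plus strand) and Mcm5 (chr8:75109259-75109508, plus strand), with the match in capitals. A match describes the letters and does not show binding.
Cdc6: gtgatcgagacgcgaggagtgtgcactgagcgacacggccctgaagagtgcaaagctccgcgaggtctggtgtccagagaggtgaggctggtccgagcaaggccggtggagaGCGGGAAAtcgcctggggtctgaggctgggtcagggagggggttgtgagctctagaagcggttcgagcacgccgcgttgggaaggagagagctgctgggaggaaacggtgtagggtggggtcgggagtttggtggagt
Mcm5: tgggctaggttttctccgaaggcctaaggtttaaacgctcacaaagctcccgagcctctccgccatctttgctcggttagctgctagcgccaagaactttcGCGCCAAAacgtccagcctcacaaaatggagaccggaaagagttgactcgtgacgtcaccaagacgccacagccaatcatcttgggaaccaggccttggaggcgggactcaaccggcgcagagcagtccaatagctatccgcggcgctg

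Mitotic genes gave a less uniform picture. Of 20, 11 rose and none fell, with a median of 0.60, as large as that of the replication genes. Here adult replicate 3 stood apart: Mki67, a marker of cycling cells, was at 462, 888 and 561 CPM in adults and 814, 779.5, 1058 and 955 CPM in neonates (log2 fold change 0.50 ± 0.32, adjusted p = 0.236). Adult replicate 3 exceeded neonatal replicates 1 and 2. The count rose to 17 of 20 without adult replicate 3 and dropped to 5 without adult replicate 2 or 4, and to 7 without neonatal replicate 3 or 4. Cdc20 (log2 fold change 0.78 ± 0.15, adjusted p = 9.35e-05) and Kif20a (log2 fold change 0.76 ± 0.17, adjusted p = 4.39e-04) rose under each of those omissions. Among 16 regulators of G1, 7 rose and 6 fell (median 0.14). Cyclin E1 (Ccne1), which drives entry into S phase, was at 42.5, 40.5 and 31.1 CPM in adults and 81.6, 84.5, 83.5 and 80.8 CPM in neonates (log2 fold change 1.12 ± 0.14, adjusted p = 9.04e-08), and E2f1, E2f2 and Ccnd3 also rose. Cdk6 fell, at 737, 829.9 and 724 CPM in adults and 457, 501, 483 and 368 CPM in neonates (log2 fold change -0.76 ± 0.16, adjusted p = 3.21e-04). The inhibitor genes Cdkn1a (-1.55), Cdkn1b (-0.62) and Cdkn2c (-0.71) fell with it.

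Biosynthetic genes rose together. In glycolysis 15 of 17 rose and 1, Hk1, fell (median 0.57). Pkm, the pyruvate kinase, was at 1032, 1076 and 960.0 CPM in adults and 1863, 1802, 1855 and 2128 CPM in neonates (log2 fold change 0.90 ± 0.10, adjusted p = 3.63e-09), and Ldha, lactate dehydrogenase, at 1064, 999 and 873 CPM in adults and 1619, 1499, 1544 and 1732 CPM in neonates (log2 fold change 0.71 ± 0.10, adjusted p = 7.04e-07). In cholesterol synthesis 15 of 18 rose and none fell (median 0.71). Hmgcs1, an early enzyme of the pathway, was at 90.6, 123 and 100.4 CPM in adults and 242, 202, 237 and 201 CPM in neonates (log2 fold change 1.08 ± 0.10, adjusted p = 6.84e-11). The libraries of the ages were separate for Pkm, Ldha and Hmgcs1. In ribosome biogenesis 18 of 21 rose and none fell, with a smaller median of 0.36. Ncl, which encodes nucleolin, rose by 0.44 and Odc1 by 0.60, whereas Myc itself was at 282, 321 and 259 CPM in adults and 284, 309.9, 359 and 319 CPM in neonates (log2 fold change 0.15 ± 0.10, adjusted p = 0.292). No glycolysis or ribosome gene reached 2-fold, and 1 cholesterol gene did. With total counts the numbers rising were 14, 13 and 15.

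Genes induced by interferon fell with 1 exception. Of 40 tested, 39 fell and 1 rose, with a median of -1.42, and the same 39 of 40 count was returned without each DN library in turn and under each scaling and test tried. The antiviral sensor gene Oas1a was at 10.4, 10.8 and 9.61 CPM in adults and 1.50, 1.52, 1.71 and 1.86 CPM in neonates (log2 fold change -2.63 ± 0.21, adjusted p = 1.34e-12). Ifit3, an interferon-induced antiviral gene, was at 13.7, 10.7 and 10.9 CPM in adults and 2.60, 1.62, 2.25 and 2.28 CPM in neonates (log2 fold change -2.43 ± 0.26, adjusted p = 7.05e-09), and its reads may be shared with the near copy Ifit3b. Irf7, the master regulator of type I interferon genes, was at 34.6, 35.2 and 46.3 CPM in adults and 12.7, 12.0, 13.3 and 14.1 CPM in neonates (log2 fold change -1.58 ± 0.12, adjusted p = 2.30e-13). For each of these the lowest adult library lay above the highest neonatal one. The exception, Ifit2, was at 34.4, 31.7 and 29.1 CPM in adults and 46.6, 40.5, 35.8 and 36.7 CPM in neonates (log2 fold change 0.33 ± 0.12, adjusted p = 0.0298), a call lost with total counts and without adult replicate 3 or 4 or neonatal replicate 1 or 2, with values of 0.25 to 0.39 on leaving out 1 library. In a list of interferon receptors and kinases with the regulators Irf1, Irf3 and Socs1, 9 of 10 genes fell more modestly (median -0.56). Their falls ran from -0.41 for Ifnar1 to -0.86 for the feedback inhibitor Socs1, and Irf3 did not pass (-0.14).

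The interferon-stimulated response element, searched as GAAANNGAAA on both strands with overlaps counted, was in the same windows of 18 of 29 interferon response genes (62.1%), of 3 of 16 MHC class I genes (18.8%), of 1 of 16 mitosis genes (6.25%), of none of 17 replication, 14 ribosome biogenesis or 12 cholesterol synthesis genes, and of 421 of 10812 tested genes (3.89%). The bases before the start sites of the 3 listed genes with the largest falls whose matches lay upstream are printed with the matches in capitals. They are Oas1a (chr5:120907526-120907775, minus strand), with 2 overlapping matches, Ifit3 (chr19:34583279-34583528, plus strand), with 2, and Oas3 (chr5:120777660-120777909, minus strand), with 1. Oas3, of the same family as Oas1a, was at 17.1, 23.1 and 25.4 CPM in adults and 5.61, 4.61, 4.55 and 6.16 CPM in neonates (log2 fold change -2.07 ± 0.16, adjusted p = 1.11e-12).
Oas1a: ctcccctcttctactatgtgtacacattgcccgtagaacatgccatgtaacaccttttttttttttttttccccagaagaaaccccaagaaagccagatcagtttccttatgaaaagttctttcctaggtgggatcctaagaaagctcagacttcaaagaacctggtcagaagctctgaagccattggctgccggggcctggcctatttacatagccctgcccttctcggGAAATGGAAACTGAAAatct
Ifit3: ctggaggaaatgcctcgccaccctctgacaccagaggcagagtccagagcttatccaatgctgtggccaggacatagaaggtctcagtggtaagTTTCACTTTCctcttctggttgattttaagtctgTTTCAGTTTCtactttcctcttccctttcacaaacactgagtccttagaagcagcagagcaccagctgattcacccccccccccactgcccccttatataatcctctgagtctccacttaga
Oas3: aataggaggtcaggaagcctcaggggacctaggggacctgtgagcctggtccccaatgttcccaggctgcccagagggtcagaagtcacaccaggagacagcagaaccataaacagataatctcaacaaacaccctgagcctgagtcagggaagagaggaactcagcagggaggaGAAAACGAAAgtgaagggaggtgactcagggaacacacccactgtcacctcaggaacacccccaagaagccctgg

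MHC class I genes, which present peptides to CD8 T cells and are themselves raised by interferon, fell in 13 of 18 tested and rose in 1 (median -0.88). H2-K1, a classical heavy chain on chromosome 17 from 33996017 to 34000347, was at 726, 747 and 960.1 CPM in adults and 159, 149.5, 158 and 164 CPM in neonates (log2 fold change -2.37 ± 0.13, adjusted p = 1.19e-16). B2m, the light chain, was at 743, 669.7 and 722 CPM in adults and 307, 270.3, 227 and 251 CPM in neonates (log2 fold change -1.43 ± 0.11, adjusted p = 5.69e-13). Nlrc5, the transactivator of these genes, was at 44.7, 51.8 and 67.5 CPM in adults and 8.56, 9.42, 10.9 and 8.45 CPM in neonates (log2 fold change -2.56 ± 0.12, adjusted p = 2.99e-18). All 3 genes were separate between ages by a wide margin. H2-Q7 (-4.56) and H2-D1 (-2.23) fell too, though reads of these heavy chains may be shared among near-identical copies. The chaperone gene Pdia3 (0.06) did not pass. The 1 rise, in Canx (0.23), was lost in 8 alternatives, among them total counts and leaving out any adult library or neonatal replicate 1 or 2 (values of 0.18 to 0.27 over all omissions).

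Most marker lists of other cells moved in the same direction as the interferon and MHC class I genes, and the part of such cells in these falls was not tested. The subset at 10 CPM or more in all 4 DN and DP groups was set beside its own age difference in DP. In that subset 13 of 14 interferon response genes fell in DN (median -1.01), and 12 of 14 had a lower mean in neonatal DP (median -0.39). For MHC class I the DN median over 15 genes was -0.55, and all 15 were lower in neonatal DP (median -0.29). DNA replication genes were higher in DP in 20 of 20 (median 0.48, against 0.61 in DN). For glycolysis, over 15 genes, the median was 0.60 in DN and -0.13 in DP. For ribosome biogenesis it was 0.36 in DN and -0.07 in DP over 19 genes. Of all 7605 genes in that subset, 4179 were lower and 3426 higher in neonatal DP, with medians of 0.01 in DN and -0.03 in DP. The DP values are descriptions and were not tested on their own.

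**Figure D4:**
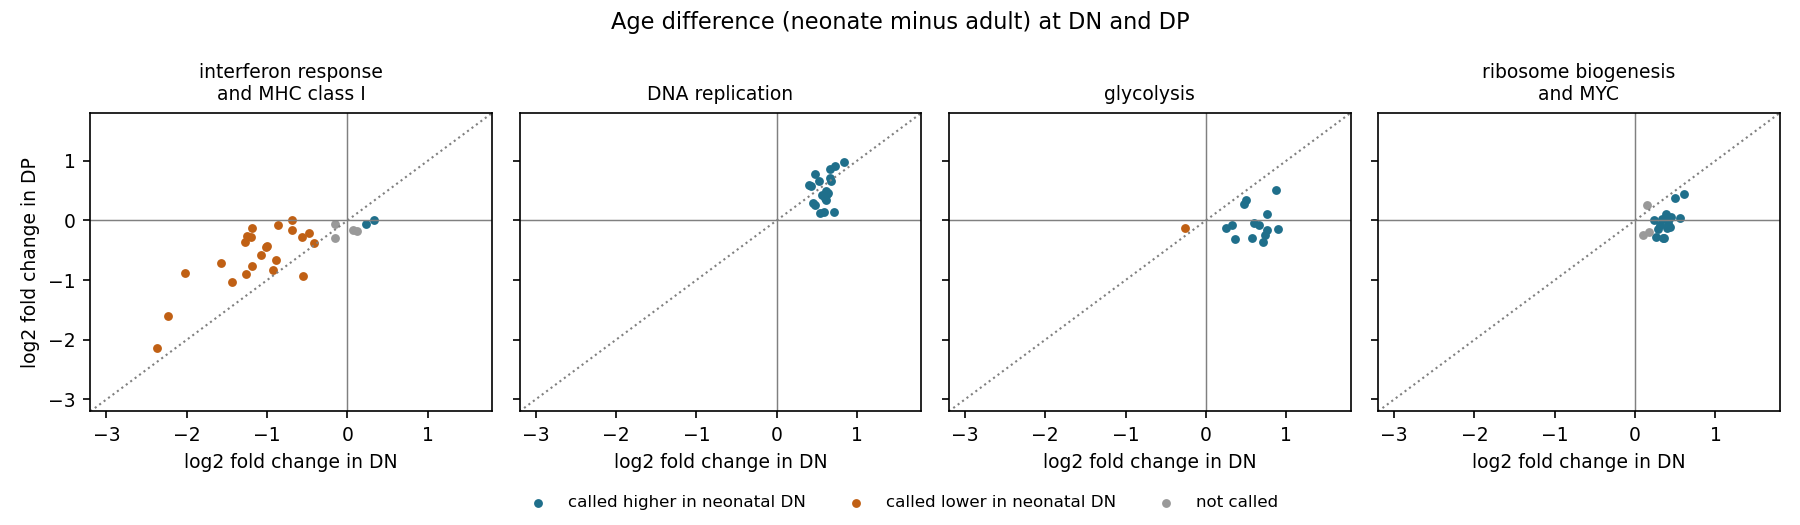
Age difference (log2 of neonate over adult) in DN on the x axis and in DP on the y axis for genes of 4 sets with at least 10 CPM in every DN and DP group, coloured by the DN call, with a dotted line of equality. Interferon and MHC class I genes lie mostly below 0 on both axes and replication genes above 0 on both, whereas glycolysis genes, Hk1 aside, are above 0 in DN and scatter around 0 in DP (medians 0.60 and -0.13).

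Most marker lists of cells outside the T lineage summed lower in neonatal DN libraries, while the granulocyte, erythroid, platelet and fibroblast lists overlapped between ages. Some members, among them Ighm, Cd79b, Xbp1 and Ly6d, were at 10 CPM or more in DP at both ages as well. Whether other cells were the only source of these transcripts was not tested. Over the lists of cells other than T and NK cells, the sum was 3435, 2492 and 6373 CPM in adults and 1372, 1243, 1224 and 1580 CPM in neonates. It was 3.03 times higher in adults, or 2.77 times without immunoglobulin genes. Adult replicate 4 held 51.8% of the adult sum, or 43.4% without immunoglobulin genes, so both ratios would be smaller without it. Of 19 B cell genes 16 fell and none rose (median -2.07). Cd79a, a chain of the B cell receptor complex, was at 63.6, 28.9 and 69.9 CPM in adults and 12.3, 7.52, 9.34 and 13.0 CPM in neonates (log2 fold change -2.37 ± 0.22, adjusted p = 7.22e-11). Plasma cell genes fell in 7 of 8, and here adult replicate 4 set the size. Jchain, which joins secreted antibodies, was at 14.3, 13.5 and 288 CPM in adults and 2.60, 2.24, 1.60 and 3.61 CPM in neonates (log2 fold change -5.39 ± 0.83, adjusted p = 1.52e-05), or -2.46 without adult replicate 4, and 4 plasma cell genes were then called lower and 1 higher. All 7 MHC class II genes fell (median -2.52), with Cd74 at 457, 286 and 547 CPM in adults and 73.1, 46.8, 70.7 and 103 CPM in neonates (log2 fold change -2.55 ± 0.29, adjusted p = 2.00e-07).

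Macrophage and monocyte genes fell in 11 of 11 tested, or 7 without adult replicate 4, with Csf1r, the macrophage growth factor receptor, at 21.5, 14.6 and 43.4 CPM in adults and 3.36, 3.24, 2.95 and 6.69 CPM in neonates (log2 fold change -2.71 ± 0.40, adjusted p = 1.86e-06). The macrophage complement genes C1qa, C1qb and C1qc lay under 1 CPM everywhere. Dendritic cell genes fell in 12 of 17, with Cd209a at 14.4, 9.95 and 25.8 CPM in adults and 0.810, 1.19, 0.946 and 1.59 CPM in neonates (log2 fold change -3.87 ± 0.41, adjusted p = 4.62e-08), while Siglech, a plasmacytoid marker, was at 6.12, 4.12 and 5.97 CPM in adults and 6.08, 6.61, 4.79 and 6.16 CPM in neonates and did not pass. Granulocyte genes were the exception among the myeloid lists, with 1 of 8 rising and 1 falling. Ngp, a neutrophil granule gene, rose (0.466, 5.36 and 4.36 CPM in adults and 13.8, 5.99, 3.13 and 29.7 CPM in neonates, log2 fold change 1.93 ± 0.57, adjusted p = 0.00860), but the libraries overlapped and the call was lost without neonatal replicate 4 (1.15). The remaining lists were small. Of their tested genes, 1 rose and 1 fell of 7 erythroid, 0 and 3 of 7 thymic epithelial, 1 and 1 of 4 fibroblast, 0 and 2 of 6 endothelial, 0 and 1 of 1 mast cell and 0 and 0 of 1 platelet genes. Defining genes were mostly absent: Foxn1, Krt14 and Pax9 were at or near 0 in all 7 libraries. Aire, an epithelial gene, was at 3.26, 3.41 and 5.13 CPM in adults and 0.926, 1.14, 2.30 and 1.86 CPM in neonates, and its fall (log2 fold change -1.34 ± 0.52, adjusted p = 0.0413) was lost on leaving out 6 of the 7 libraries in turn (values of -1.59 to -1.10).

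**Figure D5:**
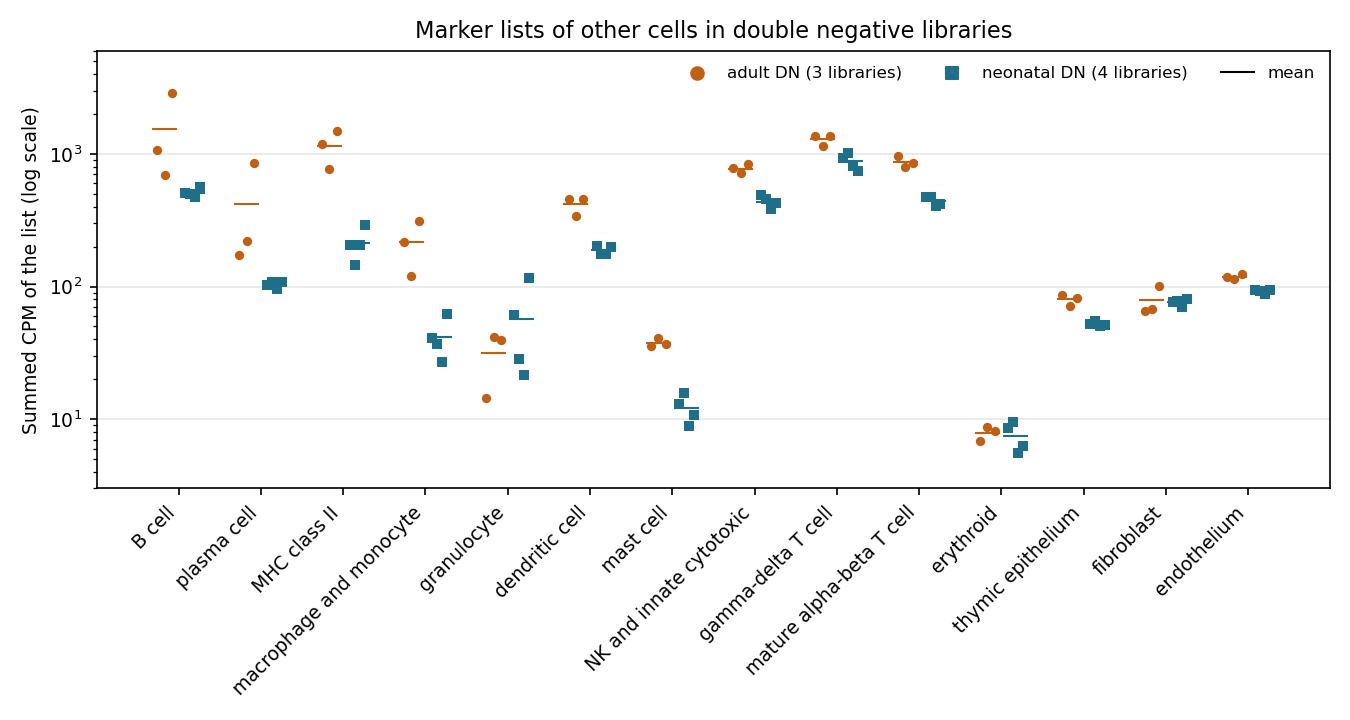
Summed CPM of 14 marker lists on a log scale in each DN library, adult as circles and neonatal as squares, with lines at the means. The B cell, plasma cell, MHC class II, macrophage, dendritic and NK lists were higher in every adult library, while the granulocyte, erythroid and fibroblast lists overlapped.

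Klra9 and Styk1 fell most among the ranked genes, those called, with no overlap and at least 10 CPM in adults, once predicted genes, pseudogenes and antigen receptor segments are left out. Of 31 NK and innate cytotoxic genes 28 fell and 1 rose, with a median of -2.95. Klra9, a Ly49 family receptor, was at 38.7, 28.8 and 41.9 CPM in adults and 0.0579, 0.190, 0.118 and 0.0531 CPM in neonates (log2 fold change -8.31 ± 0.37, adjusted p = 4.79e-18), although near-identical family members can share its reads. Styk1, a kinase-like gene, was at 16.3, 20.8 and 22.5 CPM in adults and 0.174, 0.285, 0.118 and 0.212 CPM in neonates (log2 fold change -6.58 ± 0.40, adjusted p = 1.11e-14). Klrb1c, which encodes NK1.1, was at 25.4, 19.1 and 27.0 CPM in adults and 0.810, 2.71, 1.24 and 0.797 CPM in neonates (log2 fold change -4.07 ± 0.45, adjusted p = 1.44e-08), and Eomes, a T-box factor, at 5.12, 4.53 and 4.75 CPM in adults and 0.579, 1.28, 0.768 and 0.319 CPM in neonates (log2 fold change -2.66 ± 0.30, adjusted p = 3.71e-08). No library of the neonates came near an adult one in any of the 4 genes. The whole list summed to 717 to 834 CPM in adults and 383 to 487 CPM in neonates, 1.77 times higher in adults. Without Gzma the list summed to 483 to 615 CPM in adults and 76.8 to 102 CPM in neonates, 6.13 times higher in adults. Gzma, which encodes granzyme A, rose instead, at 277, 234 and 219 CPM in adults and 397, 353, 306 and 347 CPM in neonates (log2 fold change 0.53 ± 0.15, adjusted p = 0.00496). Ncr1, which encodes the NK receptor NKp46, was under 2 CPM at both ages (0.666, 1.94 and 1.11 CPM in adults and 1.16, 1.09, 0.414 and 0.266 CPM in neonates) and did not pass (log2 fold change -0.75 ± 0.63, adjusted p = 0.389).

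Gamma-delta T cell genes moved both ways, 5 of 20 rising and 5 falling. The 4 constant region segments of the gamma locus summed to 686 to 846 CPM in adults and 187 to 291 CPM in neonates, 3.23 times higher in adults, and all 4 fell. Trdc, the delta constant region, was at 228, 177 and 184 CPM in adults and 179, 194, 160.0 and 158 CPM in neonates, overlapping and not called (log2 fold change -0.18 ± 0.11, adjusted p = 0.215). Sox13, a factor of IL-17-producing gamma-delta cells, was at 73.1, 67.4 and 83.4 CPM in adults and 143, 177, 147 and 141 CPM in neonates (log2 fold change 1.02 ± 0.15, adjusted p = 9.47e-07), and Etv5, another such factor, rose by 0.85. The cytokine Il17f was at 0.266, 0.235 and 0 CPM in adults and 2.49, 3.90, 1.54 and 0.850 CPM in neonates (log2 fold change 3.83 ± 0.84, adjusted p = 4.49e-04), or 3.10 without adult replicate 4, and Il17a was at 0, 0.0589 and 0.230 CPM in adults and 2.20, 2.33, 1.00 and 2.02 CPM in neonates. Sox13, Etv5, Il17f and Il17a were higher in every neonatal library. Cd163l1, which encodes SCART1 of the same cells, was at 64.0, 58.0 and 76.1 CPM in adults and 78.6, 90.2, 72.7 and 56.7 CPM in neonates and did not pass (log2 fold change 0.17 ± 0.14, adjusted p = 0.366). Genes of mature alpha-beta T cells fell in 11 of 15 and rose in 2 (median -1.28), and the part of such cells in other falls was not tested. Ms4a4b was at 55.8, 44.2 and 56.4 CPM in adults and 11.1, 11.8, 9.22 and 9.35 CPM in neonates (log2 fold change -2.32 ± 0.13, adjusted p = 1.51e-16), and Klf2, which governs thymic exit, at 30.5, 33.9 and 37.6 CPM in adults and 8.04, 11.6, 11.9 and 12.1 CPM in neonates (log2 fold change -1.64 ± 0.21, adjusted p = 3.23e-07).

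Most of the other genes with large differences that are given here belong to none of the lists above. With predicted genes, pseudogenes and antigen receptor segments left out, Ptpn14 rose most among genes with at least 10 CPM in each DN and DP group. Ptpn14, a tyrosine phosphatase that restrains YAP, was at 11.5, 18.1 and 16.8 CPM in adults and 113, 127, 131 and 111 CPM in neonates (log2 fold change 2.95 ± 0.16, adjusted p = 8.05e-16). The tubulin gene Tubb2a (log2 fold change 1.78 ± 0.15, adjusted p = 7.37e-12), which can share reads with Tubb2b, the immunoglobulin superfamily gene Igsf3 (log2 fold change 2.13 ± 0.15, adjusted p = 3.66e-14) and the tetraspanin gene Cd81 (log2 fold change 1.33 ± 0.13, adjusted p = 2.20e-10) rose too. Among genes low in adults, the scavenger receptor gene Scara3 (log2 fold change 3.96 ± 0.40, adjusted p = 1.12e-09, or 4.64 without adult replicate 4), the matrix gene Fbln1 of the fibroblast list (log2 fold change 3.14 ± 0.17, adjusted p = 1.30e-16) and the intermediate filament gene Nes, which encodes nestin (log2 fold change 2.85 ± 0.27, adjusted p = 1.02e-10), were among the largest rises. Among the falls, Abcg1, a cholesterol exporter, was at 88.3, 89.8 and 94.0 CPM in adults and 18.6, 21.1, 18.9 and 17.1 CPM in neonates (log2 fold change -2.26 ± 0.08, adjusted p = 1.59e-21), and the long noncoding RNA Neat1 at 79.8, 69.4 and 122 CPM in adults and 13.9, 14.2, 19.6 and 15.7 CPM in neonates (log2 fold change -2.52 ± 0.19, adjusted p = 3.34e-11). Samd9l, an interferon-induced gene, fell by 2.20, Arl4c, a small GTPase gene, by 2.12, and Inpp4b, a phosphoinositide phosphatase gene, by 2.08. In none of these 12 genes did the libraries of the ages overlap.

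The DN age difference was then set against the mean difference at DP, SP8 and splenic CD8 cells by an interaction in the same model. It differed for 2428 genes (14.8%), more positive in 407 and more negative in 2021. With DESeq2 size factors 812 were more positive and 1580 more negative. Some of these genes are near 0 in the later stages, where there is no age difference to compare with, so the count was repeated over the 10277 genes with at least 1 CPM in all 8 groups, where 1719 were called, 348 and 1371 in those directions. Against DP alone, 2944 genes differed (17.9%), 913 more positive (5.55%) and 2031 more negative (12.3%), or 1811 without adult replicate 4.

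Interactions were ranked among called genes of at least 10 CPM in a DN group, leaving out predicted genes, pseudogenes and antigen receptor segments. Cd8a had the most positive one there (interaction 2.33 ± 0.11 on the log2 scale, adjusted p = 5.99e-18), while its DP means, given above, were lower in neonates. Wnt5b, a Wnt ligand, was next among ranked genes of at least 1 CPM in all 8 groups (interaction 1.84 ± 0.24 on the log2 scale, adjusted p = 4.72e-07), with 4.73, 4.24 and 3.14 CPM in adults and 16.1, 15.7, 16.1 and 14.4 CPM in neonates in DN. Ahnak, a large scaffold protein gene that activated and memory lymphocytes express, had the most negative one among those genes (interaction -3.00 ± 0.21 on the log2 scale, adjusted p = 2.29e-11), at 118, 176 and 237 CPM in adults and 39.6, 40.7, 38.9 and 35.2 CPM in neonates in DN. The libraries of the ages were separate in DN for all 3 genes. By list, the interaction was negative for 25 of 40 interferon response genes and positive for 2, against 12.3% and 2.47% of all genes. For glycolysis it was positive in 8 of 17 and negative in none, and for cholesterol synthesis in 7 of 18 and none. For DNA replication it was called in 6 of 22, with 1 positive and 5 negative, and for mitosis it was negative in 14 of 20.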

How the data were processed

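The authors deposited 1 table of raw read counts per gene for 31 libraries of mouse thymocytes and splenic CD8 T cells. Reads were trimmed with Trim Galore and aligned with STAR 2.7.10a to mm10, per the submitters' processing notes. The counting tool, strand setting and annotation release are not given in the sources used here. Of 53700 genes, 52147 took a symbol from GENCODE M21 by identifier.

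Counts were scaled by TMM and fitted in edgeR 4.0.16 (R 4.3.3) with 8 group means over all 31 libraries and a robust quasi-likelihood test. Genes passed filterByExpr (minimum count 10, minimum total 15), and p-values were adjusted over 16461 genes. The fit was tested on simulated counts. DESeq2 1.42.0, limma 3.58.1, other scalings, no filter, the DN libraries alone and leaving out each DN library were tried.

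The 35 lists hold 547 different genes, and 2 of their 577 entries took no identifier. The members and lists were chosen with earlier results of these data known. Genes named were list members, the 15 largest rises and falls without overlap at 10 CPM or more, the 10 largest in DN and DP, and the 5 highest and lowest called interactions at 10 CPM or more in a DN group, without predicted genes, pseudogenes and antigen receptor segments. From the rankings only some are described, and some genes are not reported here. Promoter windows and sequences are from RefSeq (GRCm38.p6). Adult DN replicate 1 was not analysed here.

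Replicates differed beyond counting noise, so each counted as 1 sample. The chi-square per degree of freedom was 22.2 to 42.3 between adult DN libraries and 6.85 to 12.2 between neonatal ones.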

Additional observations from a re-analysis of the deposited data

Results flagged for a closer look

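Among 213 groups of 4 neonatal DN libraries, 11 held a library separated from the other 3 by an unusually wide gap, and chance gives about 1 in 20. The low values were 157 CPM for Lef1 in neonatal replicate 4, 8.04 CPM for Klf2 in replicate 1, and 10.1 CPM for Bcl11a and 28.5 CPM for Ptpn22 in replicate 3. The high values were 6.69 CPM for Csf1r, 6.80 CPM for Cyp4f16, 13.7 CPM for Spi1 in replicate 4, and 12.1 CPM for Nes in replicate 2. The others were genes of 3 counts or fewer, with 0.0591 CPM for C1qa in replicate 3, and 0.0476 CPM for Foxn1 and 0.143 CPM for Igf2 in replicate 2. Lef1, Klf2, Bcl11a, Ptpn22, Csf1r, Spi1 and Nes still did not overlap between the ages.

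The age difference in DN differed from the mean of the later stages, by the interaction in edgeR, for the ranked genes. More positive in DN were Cd8a (2.33 on the log2 scale), Inava (2.06), Cyp4f16 (1.85), Wnt5b (1.84) and Pck2 (1.56), and, among genes of at least 1 CPM in all 8 groups, Fgf13 (1.50), Cd8b1 (1.36) and Tubb2a (1.25). More negative were Styk1 (-7.92), Klra9 (-7.84), Fgl2 (-5.52), H2-Eb2 (-5.02) and Itga1 (-4.46). Those 5 are near 0 in 1 or more of the later groups, where the fitted difference is poorly determined. Among genes of at least 1 CPM in all 8 groups, the most negative were Ahnak (-3.00), Tent5c (-2.63), Gramd3 (-2.56), L1cam (-2.53) and Itpripl2 (-2.49). Tent5c was at 3.86, 6.95 and 27.7 CPM in adults and 1.39, 1.86, 2.30 and 1.38 CPM in neonates, and its DN difference of -2.95 became -1.65 without adult replicate 4.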

How the results depend on the processing

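No gene called between the DN ages was called in the opposite direction under any alternative run. Requiring at least 2-fold left 2001 genes between the DN ages (300 higher, 1701 lower), 954 for DN against the mean of the later stages (79 and 875) and 1046 for DN against DP (82 and 964). By that fold, 0 genes of the DNA replication, mitosis, ribosome biogenesis and glycolysis lists were called higher in edgeR. Scaling moved the balance of directions. The share higher among called genes was 48.0% with DESeq2 size factors, 48.9% in the DESeq2 test and 47.1% in the fit of the 7 DN libraries. With total counts it moved the other way, to 28.6%. More positive interactions against the later stages numbered 812 with DESeq2 size factors and 1035 in the DESeq2 test, and against DP 1510 and 1738, or 512 with total counts. Leaving out each DN library gave 4255 to 5557 genes called between the DN ages, 244 to 462 more positive against the later stages, 1811 to 3010 called against DP (474 to 924 more positive and 1337 to 2086 more negative) and 5 to 17 mitosis genes higher. The lowest of these came without adult replicate 4, together with adult replicate 2 for mitosis. DN1 genes lower were 14 in limma-voom and in the fit of the 7 DN libraries, DN2 to DN3 genes lower were 6 with DESeq2 size factors and in the DESeq2 test, and mitosis genes higher were 19 with no filter. The cause of these shifts was not tested.

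Samples with the same replicate number were not established as pairs: deviations of same-numbered libraries correlated at 0.0958 to 0.171, and those of other numbers at -0.124 to 0.123. Adult replicates 3 and 4 each correlated best with the neonatal library of their own number (0.141 and 0.171). Adult replicate 2 correlated better with neonatal replicate 1 (0.123) than with its own number (0.0958). Whether same-numbered libraries shared a batch was not tested. With the replicate number as a block in the fit of the 7 DN libraries, 5851 genes were called against 6016 without it, 47.5% of them higher, with 14 DN1 genes lower and 17 mitosis genes higher. The depth of 14986973 or more counts limits statements on genes of few counts, such as Lin28b and Snrpn in adults.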

Other observations

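Several gene groups outside the lists moved together in neonatal DN cells. They were assembled after the values were seen, so their counts only describe. All 8 tested members of the Gimap family of lymphocyte GTPases fell, with Gimap3 at 66.2, 62.8 and 82.1 CPM in adults and 4.74, 6.66, 5.08 and 5.68 CPM in neonates (log2 fold change -3.66 ± 0.15, adjusted p = 1.53e-19) and Gimap9 falling least (-0.34). Of 10 targets and components of the cholesterol-sensing LXR receptors 6 fell and none rose. Abca1, a cholesterol exporter, was at 33.5, 28.6 and 46.7 CPM in adults and 3.41, 3.00, 2.07 and 3.51 CPM in neonates (log2 fold change -3.60 ± 0.20, adjusted p = 4.92e-16), and Mylip, which degrades the LDL receptor, at 41.7, 39.3 and 59.0 CPM in adults and 10.9, 10.7, 11.1 and 10.6 CPM in neonates (log2 fold change -2.12 ± 0.11, adjusted p = 5.09e-17), whereas Srebf1 did not pass (0.05). The libraries of the ages were separate for Gimap3, Abca1 and Mylip.

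Immediate early genes, which respond within minutes to stimulation or handling, fell in 13 of 14. Fos was at 58.0, 35 and 102 CPM in adults and 9.66, 17.9, 9.81 and 17.7 CPM in neonates (log2 fold change -2.24 ± 0.57, adjusted p = 0.00317) and Junb at 171, 149 and 236 CPM in adults and 72.2, 63.6, 71.3 and 78.7 CPM in neonates (log2 fold change -1.38 ± 0.31, adjusted p = 9.68e-04). Hspa1a, a heat shock gene, was at 0.399, 24.8 and 3.98 CPM in adults and 0.579, 0.238, 0.295 and 0.637 CPM in neonates, so adult replicate 3 held most of it, and its call was lost without that library (-2.35). The nuclear RNA Malat1 was at 462, 451 and 636 CPM in adults and 183, 217, 195 and 137 CPM in neonates (log2 fold change -1.50 ± 0.27, adjusted p = 8.59e-05). Among 6 linker and variant histone genes 4 rose and 1 fell, with H1fx at 13.4, 11.8 and 6.54 CPM in adults and 23.3, 29.0, 31.1 and 37.1 CPM in neonates (log2 fold change 1.53 ± 0.24, adjusted p = 9.25e-06). Fos, Junb, Malat1 and H1fx did not overlap between the ages. Of 24 tested beta chain variable segments 11 rose and 2 fell (median 0.33), and near-identical segments can share reads.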
